A study of Homo sapiens with 8 samples.

Results

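RNA polymerase I transcribes the ribosomal RNA (rRNA) genes, and a large set of nucleolar proteins turns the transcript into ribosomal subunits. Nascent transcription of 46 genes for this machinery, of 27945 rows counted, was examined in IMR90 cells, a widely used line of normal diploid human lung fibroblasts. They were listed by name for their function, under a rule that uses no measured value, though with earlier results of these data known. The list holds MYC, 5 polymerase I subunits, 6 polymerase I initiation factors, 6 genes for snoRNP proteins and their assembly, 5 subunits of the UtpA complex, 9 other small subunit factors, 8 large subunit factors and 6 other nucleolar proteins. Control cells were labeled wild type, and their labels name no shRNA and do not say whether they carried the fusion described next. The other 3 groups were senescent through ER:RAS, a fusion of oncogenic H-RAS with the estrogen receptor that 4-hydroxytamoxifen activates (100 nM, with collection on day 6 in the protocol), and carried shControl, shMETTL3 or shMETTL14. METTL3 and METTL14 are the core subunits of the complex that methylates adenosine in RNA. A single hairpin was used against each of them, and infected cells were selected with puromycin. Because no shRNA is named for control cells, senescence and infection cannot be told apart in any comparison with control cells. Each group had 2 libraries, made in independent experiments, so that every error given here rests on 2 libraries per group.

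Ribosome production begins when UBTF, the SL1 complex and RRN3 bring polymerase I to the rRNA gene promoter. The long precursor RNA is then modified by small nucleolar RNPs (snoRNPs), folded and cut within the small subunit processome, and the subunits mature with the help of further factors before export. MYC, a transcription factor of growing cells, binds the sequence CACGTG (the E-box) with its partner MAX and is known to raise transcription of many genes of this pathway. Ribosome production is high in dividing cells, and nucleolar stress is a known feature of several forms of senescence.

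In fastGRO-seq, nuclei are isolated and engaged polymerases lengthen their transcripts with a labeled nucleotide. The labeled RNA is captured and sequenced, so reads over a gene report transcription under way and not stored mRNA. The deposited values were raw read counts over whole gene bodies. Library totals ran from 14897360 to 20306299. Of these totals, 86.2% to 92.5% lay in 21 rRNA rows, and 1513930 to 2048475 counts per library lay elsewhere. The rRNA share was 89.9% in both control libraries, 92.5% and 92.1% for shControl, 88.4% and 86.2% for shMETTL3, and 90.4% and 91.3% for shMETTL14, and its part in the results below was not tested. Of 8 fibroblast markers, 5 had at least 100 counts in every library. Of 8 markers of epithelium, endothelium and leukocytes, 6 had at most 3 counts in every library. The summed normalized count of the fibroblast markers was 20835 to 22344 in control cells, 10004 to 11662 with shControl, 9945 to 12103 with shMETTL3 and 7346 to 8210 with shMETTL14. In bulk samples like these, lower transcription in every cell and in a part of the cells cannot be told apart. Over METTL3, normalized counts were 70.8 and 67.9 in control cells, 91.0 and 52.3 for shControl, 16.4 and 18.0 for shMETTL3, and 73.0 and 59.0 for shMETTL14. Over METTL14 they were 53.1 and 47.9, 28.4 and 31.2, 42.1 and 45.6, and 18.0 and 14.7 in the same order. METTL3 was lower with shMETTL3 than with shControl (log2 fold change -2.04 ± 0.31 SE, edgeR adjusted p = 1.795e-05). METTL14 was lowest with shMETTL14, but its difference from shControl did not pass the test (-0.86 ± 0.34, edgeR adjusted p = 0.0763). A hairpin acts on RNA after transcription, so that nascent counts are no direct check of a knockdown.

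Most of the 46 genes gave modest counts. Their mean raw count over the 8 libraries had a median of 62.8, against 48.3 over all genes tested, and it was under 100 for 37 of them. Per kilobase of gene, the mean normalized count of the 46 genes had a median of 2.92, against 1.66 over all genes tested. NCL was highest on this scale with 35.1 normalized counts per kilobase, followed by NPM1 with 17.6, TAF1D with 17.5 and RRS1 with 15.9. BOP1, a large subunit factor, had 4 to 8 raw counts per library and was too low to test. The other 45 genes passed the filter. DNA strands were not separated by the counts. There were 221 nested gene pairs on opposite strands whose inner gene had a mean of at least 20 counts, and in these the host's counts were never below those of the gene inside it, so overlapping genes share reads. Of the 46 genes, 37 shared under 5% of their span with any other row, and 10 held rows of small RNAs.

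Between the 2 knockdowns, 19 of the 45 genes tested were higher with shMETTL14 than with shMETTL3, 25 were not called, and nucleolin (NCL) was the one gene called lower. The 8 libraries were fitted together in edgeR, and its quasi-likelihood test was used for every comparison, with Benjamini-Hochberg adjustment over 12844 genes and a threshold of 0.05. Over all genes tested, 16.5% were called higher between the knockdowns and 18.7% lower. The median log2 fold change of the 45 genes was 0.50, against 0.01 over all genes tested. Without shMETTL14 replicate 1, 10 were called higher, and without any other single library 15 to 20 were.

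In senescent shControl cells, 7 of the 45 genes rose against control cells and 2 fell, where 13.3% of all genes tested were called higher and 13.3% lower. Their median log2 fold change was 0.28, against -0.03 over all genes. When only the groups compared were fitted, 14 were called higher, and 11 were with trends on GC share and gene length removed. The shares of all genes called were not counted in these fits. With 1 library left out, 5 to 11 rose (11 without either shMETTL3 library), and neither fall was called by DESeq2 or without any one of the control and shControl libraries or shMETTL14 replicate 1. With shMETTL3, no gene rose against shControl and 6 fell, where 12.3% of all genes were called higher and 11.2% lower. The median was -0.26, against -0.03, and 13 genes differed in either direction at an unadjusted p below 0.05, as did 4466 of all 12844 genes. With trends on GC share and gene length removed, as described further on, the median was -0.13, against 0.01. DESeq2 called no rise and 2 falls, NCL and TSR1, and these were also the 2 falls called without either shControl library. With shMETTL14, 6 genes rose against shControl and 2 fell, where 9.15% of all genes were called higher and 12% lower, and the median was 0.27. Over the 17 alternatives described below, the smallest log2 fold changes were 0.76 for MYC, 0.64 for PES1 and 0.68 for POLR1B. They were 0.61 for POLR1D, 0.39 for POLR1A and 0.37 for WDR43. The calls of the 6 rises were not stable. None of them was called without shControl replicate 1, without shControl replicate 2 or without shMETTL14 replicate 1, and DESeq2 called none.

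Against control cells, shMETTL14 gave 19 higher and 1 lower of the 45 genes, where 19.7% of all genes were called higher and 20.5% lower. The median was 0.43 against 0.00240 over all genes, and 12 were called higher without shMETTL14 replicate 1. For shMETTL3 against control cells, 7 were higher and 7 lower, where 20.1% of all genes were called higher and 20.1% lower. The median was 0.07, against -0.05 over all genes. Without control replicate 2, 3 were higher and 3 lower and the median was -0.024. It was also below 0 without shMETTL3 replicate 1 (-0.0093) and with library size without the rRNA rows (-0.13). The medians of all genes were -0.041, -0.083 and -0.26 in the same order, each below that of the 45 genes. These comparisons share their control or shControl libraries with one another and are given side by side only. Of the 4 group means of normalized counts, the highest was that of shMETTL14 for 26 of the 46 genes, and the lowest was that of control cells for 23 and of shMETTL3 for 19. The order of the means was not counted over all genes, so these numbers have no background to be read against.

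The scaling of the libraries sets the center of these changes. With library size alone, which includes the rRNA rows, the median log2 fold change of all genes tested was -0.53 in senescence, 0.58 for shMETTL3 and 0.35 for shMETTL14 against shControl, and -0.25 between the knockdowns. The 45 genes then gave 1 higher and 6 lower in senescence, 9 and 2 with shMETTL3, 21 and 1 with shMETTL14, and 11 and 3 between the knockdowns. With library size without the rRNA rows they gave 0 and 10 with shMETTL3, 10 and 1 with shMETTL14 and 25 and 0 between the knockdowns, and for shMETTL3 against control cells 3 and 9. The shares of all genes called were not counted under these scalings, and the shares given above do not apply to them. Set against the median of all genes, the median of the 45 genes lay at 0.31, -0.23, 0.27 and 0.48 with library size alone, and at 0.31, -0.23, 0.27 and 0.49 as scaled here.

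**Figure D1:**
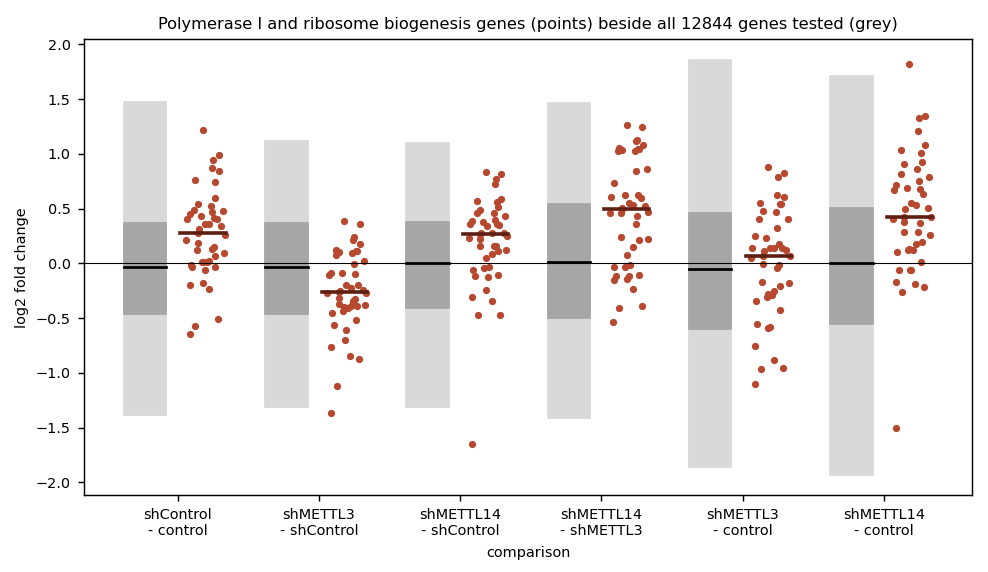
Log2 fold changes of 45 polymerase I and ribosome biogenesis genes (points, with their median as a dark line) in 6 comparisons, beside all 12844 genes tested (light grey, 5th to 95th percentile; dark grey, 25th to 75th percentile; black line, median). The points center near 0.50 for shMETTL14 minus shMETTL3 and near -0.26 for shMETTL3 minus shControl, while the black medians lie near 0.

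Summed over the 46 genes, normalized counts were 3548 and 3562 in control cells, 4375 and 4218 for shControl, 3468 and 3522 for shMETTL3, and 4697 and 4461 for shMETTL14. The groups did not overlap, and those of shMETTL3 lay just below those of control cells. NCL weighs on these sums. Without it they were 3084 and 3104 in control cells, 3850 and 3719 for shControl, 3248 and 3271 for shMETTL3, and 4537 and 4295 for shMETTL14, so that shMETTL3 then lay above control cells.

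MYC was higher in senescent cells than in control cells and higher again with shMETTL14. Its normalized counts were 34.5 and 26.1 in control cells, 57.9 and 62.3 for shControl, 62.6 and 42.7 for shMETTL3, and 111 and 103 for shMETTL14. Both shMETTL14 libraries lay above all others, both control libraries lay below all others, and shControl and shMETTL3 overlapped. The rise in senescence was 0.99 ± 0.26 on the log2 scale (edgeR adjusted p = 0.00547). It was not called with library size alone, without control replicate 2 or without shControl replicate 2. With shMETTL14, MYC exceeded shControl by 0.83 ± 0.22 (edgeR adjusted p = 0.00831), shMETTL3 by 1.03 ± 0.22 (edgeR adjusted p = 0.000714) and control cells by 1.82 ± 0.24 (edgeR adjusted p = 6.593e-07). The last 2 differences were called under all 17 alternatives run at the same threshold (other scalings, filters and tests, and each library left out), whereas the difference from shControl was not called by DESeq2 or without shControl replicate 1, shControl replicate 2 or shMETTL14 replicate 1. MYC with shMETTL3 differed from shControl by -0.20, with a 95% interval from -0.70 to 0.30.

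Of the polymerase I subunits, none passed the test in senescence or with shMETTL3 against shControl, and 3 of 5 rose with shMETTL14 against shControl. POLR1A, the largest catalytic subunit, had normalized counts of 159 and 138 in control cells, 176 and 168 for shControl, 175 and 148 for shMETTL3, and 244 and 229 for shMETTL14. The shMETTL14 libraries lay above all others, and the shMETTL3 libraries overlapped those of control and shControl cells. Its log2 difference with shMETTL14 was 0.46 ± 0.15 from shControl (edgeR adjusted p = 0.0342), 0.55 ± 0.15 from shMETTL3 (edgeR adjusted p = 0.00632) and 0.67 ± 0.15 from control cells (edgeR adjusted p = 0.000781). POLR1B, the second catalytic subunit, rose by 0.82 ± 0.25 with shMETTL14, and POLR1D, which polymerase III also holds, by 0.73 ± 0.22. Against control cells, POLR1B was higher by 0.88 with shMETTL3 and by 1.34 with shMETTL14, calls that 16 and 17 of 17 alternatives kept. POLR1D was called lower with shMETTL3 than in control cells (-0.59), a call that 6 of 17 alternatives kept. POLR1D was also higher with shMETTL14 than with shMETTL3 by 1.12 ± 0.23 (edgeR adjusted p = 0.000331), and POLR1E, which takes part in initiation and elongation, by 1.05 ± 0.32 (edgeR adjusted p = 0.0123). POLR1C, likewise shared with polymerase III, shared 57.0% of its span with XPO5 on the other strand, so its reads cannot be assigned. It and XPO5 were higher with shMETTL14 than in control cells by 0.69 and 0.53.

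In senescence, RRN3 rose and UBTF fell among the 6 initiation factors, and none passed the test with either hairpin against shControl. UBTF, which bends and opens rRNA gene chromatin, had normalized counts of 83.2 and 80.1 in control cells, 48.5 and 55.6 for shControl, 39.0 and 37.0 for shMETTL3, and 89.0 and 67.4 for shMETTL14. Control and shMETTL14 libraries lay above shControl libraries, and shMETTL3 libraries lay below all. UBTF fell by 0.65 ± 0.22 on the log2 scale in senescence (edgeR adjusted p = 0.0322), a call that 10 of 17 alternatives kept, and it was higher with shMETTL14 than with shMETTL3 by 1.04 ± 0.23 (edgeR adjusted p = 0.00105). RRN3, which couples the polymerase to the promoter complex, had 60.2 and 67.9 in control cells, 118 and 117 for shControl, 84.1 and 93.0 for shMETTL3, and 135 and 108 for shMETTL14. All senescent libraries lay above both control libraries. RRN3 rose in senescence by 0.87 ± 0.19 (edgeR adjusted p = 0.00115), a call lost only with library size alone. All of the RRN3 span, however, lies inside PDXDC1 on the other strand. PDXDC1 had 3.1 to 7.3 times the reads of RRN3 and differed by -0.16 ± 0.14 in the same comparison. RRN3 also has pseudogene copies among which reads can be split. Of the SL1 subunits, TAF1A, TAF1B and TAF1C were not called in any comparison. TAF1D was called higher with shMETTL3 than in control cells (0.48 ± 0.15, edgeR adjusted p = 0.0109), but it hosts 9 small RNA rows. These rows took 15.8% to 28.4% of its counts in control and shControl libraries, 50% and 39.2% with shMETTL3, and 38.6% and 36.0% with shMETTL14. Without them the difference was -0.09 (edgeR adjusted p = 0.716).

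Among the snoRNP genes, FBL and NOLC1 changed, and NOP56, NOP58, DKC1 and RRP9 did not pass the test in any comparison. FBL encodes fibrillarin, the methyltransferase of box C/D snoRNPs. Its normalized counts were 44.3 and 54.0 in control cells, 48.5 and 49.0 for shControl, 23.6 and 29.4 for shMETTL3, and 66.0 and 62.1 for shMETTL14. The shMETTL3 libraries lay below all others and the shMETTL14 libraries above all others. The log2 difference between the knockdowns was 1.26 ± 0.27 (edgeR adjusted p = 0.000527) and was called under all 17 alternatives. The fall with shMETTL3 against shControl was 0.87 ± 0.28 (edgeR adjusted p = 0.0253), a call that 11 of 17 alternatives kept. It was not called by DESeq2, with library size alone, with only the groups compared, or without either shControl library or shMETTL3 replicate 1. NOLC1, a chaperone of snoRNP assembly also called Nopp140, had 54.9 and 51.4 in control cells, 104 and 100.2 for shControl, 62.6 and 57.9 for shMETTL3, and 145 and 100.04 for shMETTL14. Its shControl and shMETTL14 libraries lay above those of control and shMETTL3 cells. NOLC1 rose in senescence by 0.94 ± 0.22 (edgeR adjusted p = 0.0015), a call lost only with library size alone. It fell with shMETTL3 against shControl by 0.76 ± 0.22 (edgeR adjusted p = 0.0109), a call that 13 of 17 alternatives kept. That fall was not called by DESeq2, with library size alone or without either shControl library. NOLC1 was thus 0.18 ± 0.23 from control cells with shMETTL3 and 1.21 ± 0.21 above them with shMETTL14.

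UtpA is the complex that first binds the nascent rRNA precursor. Its subunits WDR43 and WDR75 rose in senescence, and HEATR1, UTP15 and NOL11 did not pass the test. WDR43 had normalized counts of 162 and 165 in control cells, 203 and 229 for shControl, 244 and 258 for shMETTL3, and 312 and 283 for shMETTL14. The 4 groups were in this order without overlap. WDR43 was above control cells by 0.41 ± 0.15 with shControl (edgeR adjusted p = 0.0409, a call that 7 of 17 alternatives kept), 0.62 ± 0.14 with shMETTL3 (edgeR adjusted p = 0.000957) and 0.87 ± 0.14 with shMETTL14 (edgeR adjusted p = 1.757e-05), and the last 2 were called under all 17 alternatives. WDR75 had 65.5 and 70.5 in control cells, 144 and 84.6 for shControl, 96.4 and 103 for shMETTL3, and 149.9 and 139 for shMETTL14. Its 2 shControl libraries stood apart and spanned the shMETTL3 libraries. The rise in senescence, 0.74 ± 0.22 (edgeR adjusted p = 0.0107), was not called by DESeq2, with library size alone or without shControl replicate 1 or control replicate 1, whereas that of shMETTL14 over control cells, 1.09 ± 0.21 (edgeR adjusted p = 0.000121), was called under all 17 alternatives. NOL11 was higher with shMETTL14 than with shMETTL3 by 1.04 ± 0.24 (edgeR adjusted p = 0.0011) and HEATR1 by 0.62 ± 0.17 (edgeR adjusted p = 0.00615). HEATR1 shared 7.16% of its span with LGALS8 on the other strand, whose counts were 41.6% to 82.4% of its own and which differed by 0.71 ± 0.21 in the same comparison.

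Of 9 other small subunit factors, RRP12 rose and UTP20 fell in senescence, and TSR1 fell with shMETTL3. RRP12, an export factor of both subunits, had normalized counts of 42.5 and 31.3 in control cells, 88.7 and 83.5 for shControl, 65.7 and 65.5 for shMETTL3, and 80.0 and 106 for shMETTL14. All senescent libraries lay above both control libraries, and those of shMETTL3 lay below the others. Its rise in senescence was the largest among the 45 genes, 1.22 ± 0.23 (edgeR adjusted p = 0.000234), and was called under all 17 alternatives. TSR1, a late factor that blocks early translation by the small subunit, had 79.7 and 74.0 in control cells, 94.6 and 109 for shControl, 44.1 and 35.1 for shMETTL3, and 83.0 and 105 for shMETTL14. The shMETTL3 libraries lay far below all others. TSR1 fell with shMETTL3 against shControl by 1.36 ± 0.23 (edgeR adjusted p = 5.972e-05) and against control cells by 0.96 ± 0.23 (edgeR adjusted p = 0.00127), both called under all 17 alternatives. It shared 17.5% of its span with SRR on the other strand, whose counts were 34% to 55.4% of its own and which fell by 0.88 ± 0.32 with shMETTL3. UTP20, a large processome scaffold, fell in senescence by 0.57 ± 0.20 (edgeR adjusted p = 0.0337), a call that 9 of 17 alternatives kept. Between the knockdowns, TSR1, BYSL, NOP14 and UTP20 were higher with shMETTL14, by 1.25, 0.84, 0.61 and 0.52, and 17, 12, 11 and 6 of 17 alternatives kept these calls. NOP14-AS1 overlaps 51.4% of NOP14 on the other strand. NAT10, an rRNA acetyltransferase, was higher with shMETTL3 than in control cells by 0.54, a call that 7 of 17 alternatives kept. UTP6, LTV1 and RIOK1 were not called in any comparison.

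No large subunit factor passed the test in senescence or with shMETTL3, and PES1 was the one that rose with shMETTL14 against shControl. PES1 is the core of the PeBoW complex, with BOP1 and WDR12. Its normalized counts were 60.2 and 47.9 in control cells, 59.1 and 50.1 for shControl, 52.3 and 38.9 for shMETTL3, and 99.9 and 86.4 for shMETTL14. The shMETTL14 libraries lay above all others, which overlapped. The log2 difference was 0.77 ± 0.23 from shControl (edgeR adjusted p = 0.0161) and 1.03 ± 0.23 from shMETTL3 (edgeR adjusted p = 0.000915). NOP2, an rRNA cytosine methyltransferase, was higher with shMETTL14 than with shMETTL3 by 1.08 ± 0.23 (edgeR adjusted p = 0.000622) and than control cells by 0.91 ± 0.22 (edgeR adjusted p = 0.00173). NIP7 was higher by 0.86 and 1.00 in the same comparisons and WDR12 by 0.75 than control cells. NOP16, RRS1 and GNL3 were not called in any comparison.

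NCL had the largest fall of the 45 genes with shMETTL14 against shControl. It encodes nucleolin, among the most abundant nucleolar proteins, and its row lies at chr2:232319459-232329205 (hg19). Its normalized counts were 463 and 458 in control cells, 525 and 499 for shControl, 220 and 251 for shMETTL3, and 159.9 and 165 for shMETTL14. Both knockdowns lay far below control and shControl libraries, and the replicates of each group lay close together. NCL differed by 0.15 ± 0.13 in senescence, which did not pass the test. It fell against shControl by 1.12 ± 0.14 with shMETTL3 (edgeR adjusted p = 8.624e-07) and by 1.65 ± 0.14 with shMETTL14 (edgeR adjusted p = 2.59e-09), and both falls were called under all 17 alternatives. NCL was lower with shMETTL14 than with shMETTL3 by 0.53 ± 0.15 (edgeR adjusted p = 0.00605), a call lost without shMETTL3 replicate 2 and with library size without rRNA rows. Small RNA rows inside NCL held at most 1.91% of its counts in any library. The share of NCL in the summed normalized count of the 46 genes was 11.8% to 13.1% in control and shControl libraries, 6.33% and 7.12% with shMETTL3, and 3.41% and 3.71% with shMETTL14.

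NPM1, the histone chaperone nucleophosmin, did not follow NCL. Its normalized counts were 375 and 370 in control cells, 440 and 410 for shControl, 310 and 348 for shMETTL3, and 584 and 509 for shMETTL14. The groups did not overlap, with shMETTL14 highest and shMETTL3 lowest. NPM1 was higher with shMETTL14 than with shMETTL3 by 0.73 ± 0.14 (edgeR adjusted p = 0.000137), while its differences from shControl, -0.37 with shMETTL3 and 0.36 with shMETTL14, missed the threshold (edgeR adjusted p = 0.0544 and 0.0555). NPM1 too has pseudogene copies. The ratio of NCL to NPM1 within a library was 1.19 to 1.24 in control and shControl libraries, 0.709 and 0.721 with shMETTL3, and 0.274 and 0.325 with shMETTL14.

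DDX21, a helicase that works with polymerases I and II, rose in senescence and fell with either knockdown hairpin. It had normalized counts of 161 and 145 in control cells, 269.5 and 250.4 for shControl, 162 and 220 for shMETTL3, and 196 and 178 for shMETTL14. The shControl libraries lay above all others. The rise was 0.76 ± 0.16 (edgeR adjusted p = 0.000585), a call lost only with library size alone. The falls were 0.44 ± 0.16 with shMETTL3 (edgeR adjusted p = 0.0431) and 0.47 ± 0.16 with shMETTL14 (edgeR adjusted p = 0.0323), and neither was called by DESeq2 or without either shControl library. Of the 17 alternatives, 8 kept the first call and 10 the second. MYBBP1A, a nucleolar protein that binds MYB and p53, fell with shMETTL3 against shControl by 0.85 ± 0.24 (edgeR adjusted p = 0.00941), a call that 12 of 17 alternatives kept. The fall was not called by DESeq2, with library size alone, or without either shControl library or shMETTL3 replicate 2. MYBBP1A was higher with shMETTL14 than with shMETTL3 by 1.12 ± 0.23 (edgeR adjusted p = 0.000325). TCOF1, the treacle protein that holds UBTF and polymerase I in the nucleolus, and LYAR were not called in any comparison.

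**Figure D2:**
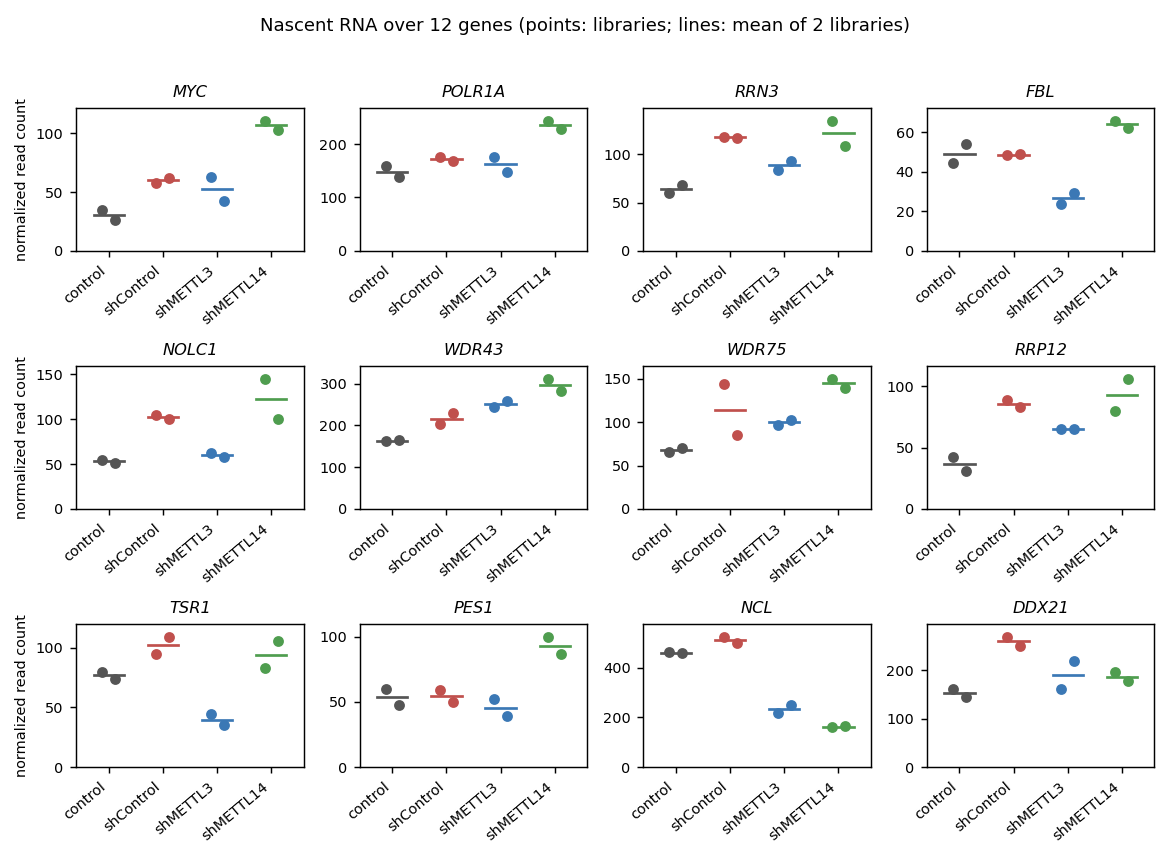
Normalized read counts (vertical axes, from 0, each on its own scale) of 12 genes in the 4 groups. Points are libraries and lines the mean of 2 libraries; NCL falls to 220 and 251 with shMETTL3 and to 159.9 and 165 with shMETTL14, while MYC reaches 111 and 103 with shMETTL14.

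**Figure D3:**
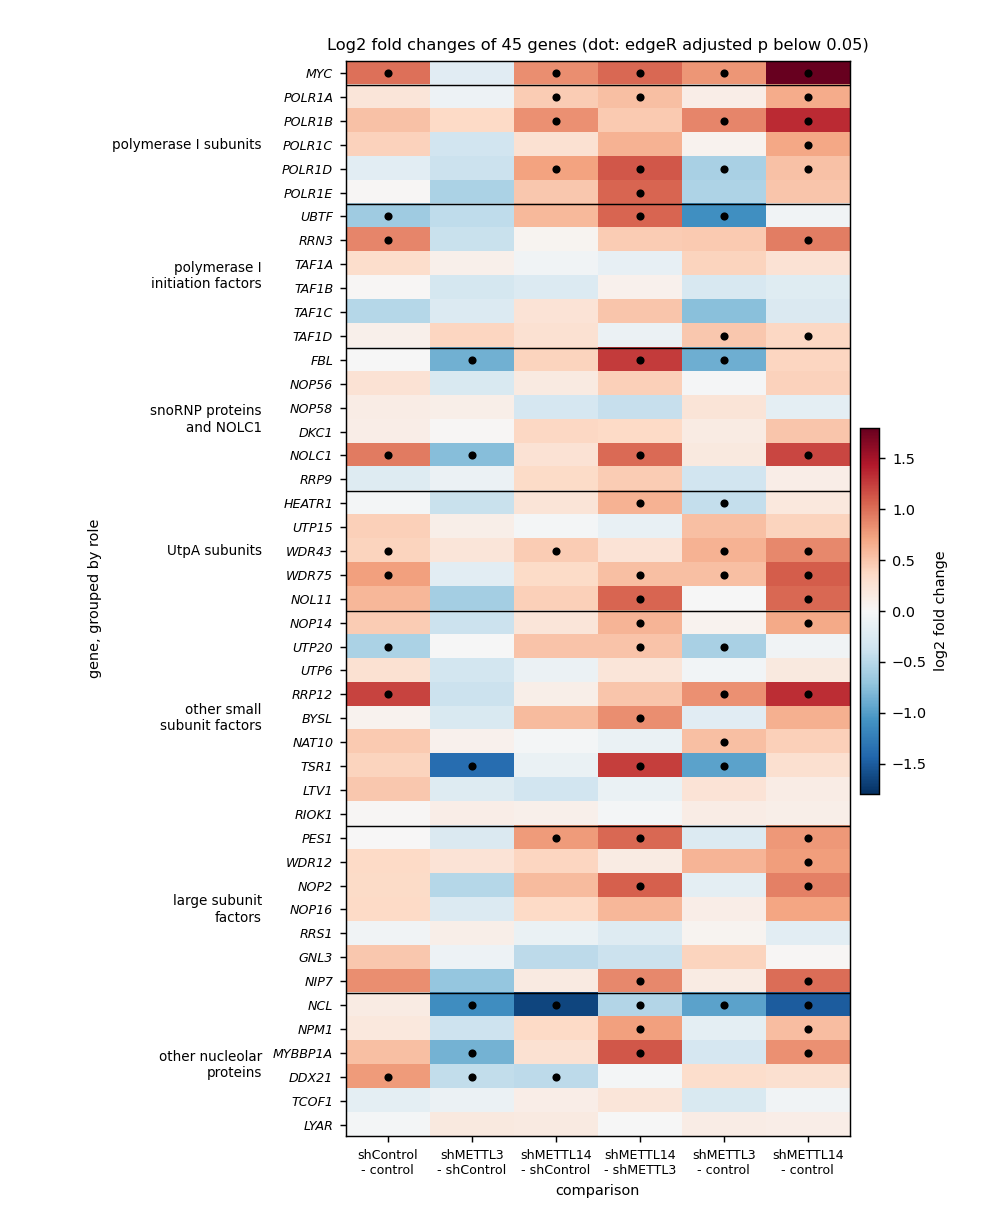
Log2 fold changes (color, red higher and blue lower) of 45 genes in rows by role and 6 comparisons in columns. Black dots mark edgeR adjusted p below 0.05; 19 dots lie in red cells and 1, NCL, in a blue cell for shMETTL14 minus shMETTL3.

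Gene length and base composition moved with these comparisons over all genes. The 45 genes had a median GC share of 45.1% over the gene body, against 43.5% over all genes tested, and a median length of 23.0 kb for the 46, against 33.3 kb. All genes tested were split at the quartiles of the 45 genes (11 or 12 of the 45 in each), a step chosen after the values were seen. Of genes over 49.2% GC, all genes tested had a median log2 difference of 0.46 between shMETTL14 and shMETTL3, and the ribosome genes had 0.50. In the next bin, from 45.1% to 49.2%, the medians were 0.14 and 0.84, and below 39.8% they were -0.30 and 0.11. By length, genes up to 11.7 kb had medians of 0.42 over all genes and 0.48 over the ribosome genes, and genes over 35.2 kb had -0.21 and 0.24. A fit that removed each library's trend on GC and length was also added after the values were seen. It called 17 of the 45 genes higher with shMETTL14 than with shMETTL3 and 2 lower. The share of all genes called was not counted in this fit. The median of the 45 genes was 0.38, against 0.0085 over all genes tested. Of the 19 genes called higher before, 15 were shared. BYSL, NIP7, NOP14 and UBTF were lost. Of the 6 falls with shMETTL3 against shControl, those of FBL (-0.65) and MYBBP1A (-0.43) were lost and that of HEATR1 was gained. In the same fit UBTF was not called in senescence (-0.46, edgeR adjusted p = 0.113).

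**Figure D4:**
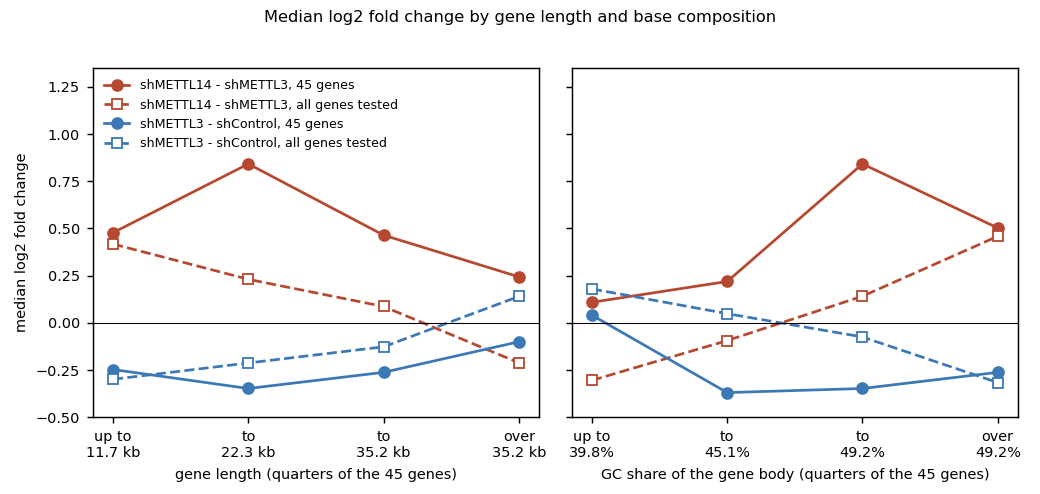
Median log2 fold change (vertical axis) by gene length (left) and GC share of the gene body (right), in bins set by the quartiles of the 45 genes (filled points, solid lines) beside all genes tested (open squares, dashed lines), for shMETTL14 minus shMETTL3 and shMETTL3 minus shControl. The solid and dashed lines meet near 0.50 and 0.46 for genes over 49.2% GC and lie apart, at 0.84 and 0.14, one bin lower.

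Promoters from RefSeq (GRCh38.p14, 250 bases before to 50 bases after the start site) matched 38 of the 46 genes. CACGTG, which reads the same on both strands, was found in a promoter of 14 of the 38 genes, or 36.8%, against 12.5% of genes tested and 8.77% of all genes with a promoter. Counted by promoter, it was in 29.8% of their 47 promoters, against 9.18% of promoters of genes tested and 7.26% of all promoters of this length. In 13 of the 14 genes it began within 40 bases of the start site. CACGCG, searched on both strands as CACGCG or CGCGTG, was found in 13 genes, or 34.2%, against 22.3% of genes tested and 13.5% of all genes with a promoter. The 30 bases around CACGTG are shown in capitals and lower case for genes that were higher with shMETTL14 than with shMETTL3, to let the flanks be compared.
FBL: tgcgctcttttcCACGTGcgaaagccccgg
NOP14: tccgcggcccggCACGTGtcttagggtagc
UTP20: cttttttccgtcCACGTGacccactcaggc
BYSL: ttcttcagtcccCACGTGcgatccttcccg
PES1: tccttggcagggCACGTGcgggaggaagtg
MYBBP1A: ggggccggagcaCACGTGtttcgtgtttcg
Capitals mark the motif, and sequences are read 5′ to 3′ on the strand of the gene. They lie at chr19:39846356-39846385 (minus strand, FBL), chr4:2963374-2963403 (minus, NOP14), chr12:101280083-101280112 (plus, UTP20), chr6:41921515-41921544 (plus, BYSL), chr22:30591880-30591909 (minus, PES1) and chr17:4555340-4555369 (minus, MYBBP1A). Counted from 1 at the start site, the motif began at 7 in FBL, 16 in NOP14, -10 in UTP20, 29 in BYSL, 14 in PES1 and 28 in MYBBP1A. NOP2, also higher, had it at 36. Of the 14 genes with CACGTG, 7 were higher with shMETTL14 than with shMETTL3, with a median log2 fold change of 0.49. Of 24 without it, 9 were higher and 1 lower, with a median of 0.48. Over all genes tested with a promoter, the medians were 0.12 with and 0.01 without CACGTG. Of these genes, 234 were higher and 204 lower of 1228 with it, and 1439 higher and 1628 lower of 8564 without it. In senescence the medians of the ribosome genes were 0.38 with and 0.27 without it, with shMETTL3 against shControl -0.25 and -0.29, and with shMETTL14 against shControl 0.31 and 0.26. The differences between genes with and without the motif were not tested. MYC, POLR1E, NOP58, NOLC1, RRP12, BOP1, RRS1 and TCOF1 were not matched.

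Other genes of ribosome production, listed by function, were set beside these. Of 115 tested, 28 were higher and 6 lower with shMETTL14 than with shMETTL3, with a median of 0.37, or 24.3% higher and 5.22% lower against 16.5% and 18.7% of all genes. In senescence 10 rose and 1 fell (median 0.12), with shMETTL3 against shControl 4 rose and 13 fell (-0.21), and with shMETTL14 against shControl 6 rose and 5 fell (0.18). The shares that rose, 8.70%, 3.48% and 5.22%, were all below those of all genes (13.3%, 12.3% and 9.15%). The shares that fell were 0.870%, 11.3% and 4.35%, against 13.3%, 11.2% and 12% of all genes. The snoRNP list gave 6 higher and 0 lower of 13 between the knockdowns, the large subunit list 13 and 3 of 48, the small subunit list 6 and 3 of 44, and the list of other polymerase I factors 3 and 0 of 10. The medians of these lists were 0.73, 0.38, 0.24 and 0.63 in the same order. The largest rises in senescence by list were IMP3 (1.23 ± 0.41), a U3 snoRNP protein, RSL24D1 (1.20 ± 0.24), a large subunit factor, and NOP10 (0.98 ± 0.29), an H/ACA snoRNP protein. Among the other polymerase I factors no gene rose, and CAVIN1, known both as a release factor of polymerase I and as a protein of caveolae, was the one that fell. It had normalized counts of 816 and 718 in control cells, 447 and 476 for shControl, 170 and 141 for shMETTL3, and 751 and 706 for shMETTL14, so that control and shMETTL14 libraries overlapped and all others lay lower. Between the knockdowns CAVIN1 differed by 2.22 ± 0.15.

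Of 13 genes of the MYC network tested, none rose and 1 fell in senescence, where 13.3% of all genes were called in each direction. With shMETTL14 against control cells, 5 were higher and 1 lower, or 38.5% and 7.69%, against 19.7% and 20.5% of all genes. MAX, the partner of MYC, differed by -0.23 in senescence and by 0.07 between the knockdowns and was not called. MXD3, a MAX partner that opposes MYC, fell in senescence by 1.06 ± 0.36 (edgeR adjusted p = 0.0274) and rose with shMETTL14 against shControl by 1.36 ± 0.35 (edgeR adjusted p = 0.00626), with 12 to 42 raw counts per library. FBXW7, which marks MYC for degradation, was higher than in control cells by 0.69 with shMETTL3 and 0.36 with shMETTL14. MXD1, MLX, MGA and MYCBP2 were the others that were higher with shMETTL14 than in control cells, and TRRAP was lower.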

How the data were processed

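Nuclei of 8 libraries (4 groups of 2) were run on with 4-thio-UTP, and labeled RNA was captured, made into directional libraries and sequenced (fastGRO-seq). Per the file headers and the study's methods, reads were aligned to hg19 with STAR, and the authors deposited raw counts of reads over gene bodies, made with HOMER, with replicates kept apart. The submitters' processing notes also name deepTools 3.3, used for signal tracks. A Drosophila RNA spike-in was part of the protocol but its reads were not analysed here, and a shift common to every gene could therefore not be detected. The study's own tests used DESeq2.

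Raw counts of all rows were fitted together in edgeR 4.0.16 (R 4.3.3), with TMM scaling, filterByExpr at a minimum count of 10 and the quasi-likelihood test, with Benjamini-Hochberg adjustment over 12844 genes. Group was the only term. The biological coefficient of variation was 10.6%. Errors are standard errors from the F statistic. A normalized count is the raw count times the mean effective library size over that of its own library. DESeq2 1.42.0, other scalings, filters and thresholds, a replicate block, rows without small RNAs inside, and each library left out in turn were alternatives, and a fit with trends on GC share and length removed was added after the values were seen. Where a library is left out, the lone library of its group is assumed to vary like those of the other groups. Figures were drawn with matplotlib 3.10.9.

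The members and lists were chosen with earlier results of these data known. All members could be named. Values in every library are given for MYC and, by role and by comparison (senescence and each knockdown against shControl), for the called member with the largest change at a mean of at least 100 raw counts, or at least 20 where none had 100. UBTF, NPM1, METTL3, METTL14 and CAVIN1 are given in the same way. Of each other list, the called gene with the largest rise and fall in senescence is named, and of the MYC network any gene. All p-values are two-sided. Replicates came from independent experiments. Same-numbered libraries did not deviate together (correlations from -0.04 to 0.10), so the numbers do not pair them. All value columns were used (0 left out).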

Additional observations from a re-analysis of the deposited data

Results flagged for a closer look

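These results were picked out because the effects of the 2 knockdowns, each against the same shControl libraries, differed when the difference itself was tested (shMETTL14 minus shMETTL3, edgeR adjusted p below 0.05). Of the 45 genes tested, 20 met this rule, which 16.5% of all genes met as higher and 18.7% as lower. The log2 difference was 1.03 for MYC. Among polymerase I subunits and initiation factors it was 0.55 for POLR1A, 1.12 for POLR1D, 1.05 for POLR1E and 1.04 for UBTF. Among snoRNP genes it was 1.26 for FBL and 1.03 for NOLC1. Among UtpA subunits it was 0.62 for HEATR1, 1.04 for NOL11 and 0.54 for WDR75. Among other small subunit factors it was 0.84 for BYSL, 0.61 for NOP14, 1.25 for TSR1 and 0.52 for UTP20. Among large subunit factors it was 0.86 for NIP7, 1.08 for NOP2 and 1.03 for PES1. Among other nucleolar proteins it was 1.12 for MYBBP1A, 0.73 for NPM1 and -0.53 for NCL. Against shControl, NCL was called lower with both hairpins, TSR1 was called lower with shMETTL3 (-0.12 with shMETTL14), and MYC and PES1 were called higher with shMETTL14 (-0.20 and -0.26 with shMETTL3). With 1 hairpin per gene, effects of the hairpin and of the loss of its target cannot be told apart.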

How the results depend on the processing

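Of 77 called pairs of gene and comparison, 28 were called under all 17 alternatives that kept the threshold of 0.05 (the GC and length fit aside). The numbers of the 45 genes higher and lower that moved by over 1.5 times are grouped here by setting, and the cause was not tested beyond what each setting changes by its construction. Shares of all genes called were not counted for these settings. At an adjusted p below 0.01, 0 fell in senescence, 3 fell with shMETTL3, 1 rose and 1 fell with shMETTL14, and 3 were higher and 3 lower for shMETTL3 against control cells. With a log2 fold change of 1 or more in size as well, 1 rose and 0 fell in senescence, 2 fell with shMETTL3, 0 rose and 1 fell with shMETTL14, 11 were higher and 0 lower between the knockdowns, 0 higher and 1 lower for shMETTL3 and 7 higher for shMETTL14 against control cells. DESeq2 called 0 falls in senescence, 2 falls with shMETTL3, 0 rises and 1 fall with shMETTL14, 11 higher between the knockdowns, and 4 higher and 3 lower for shMETTL3 against control cells. Fitting only the groups compared gave 14 rises in senescence and 10 with shMETTL14. With no filter 0 fell in senescence. With GC and length trends removed (chosen after seeing the data), 11 rose and 1 fell in senescence, 1 rose with shMETTL3, 11 rose with shMETTL14 and 2 were lower between the knockdowns.

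Library size alone gave 1 rise and 6 falls in senescence, 9 and 2 with shMETTL3, 21 and 1 with shMETTL14, 11 and 3 between the knockdowns, and 4 lower for shMETTL3 against control cells. It turned the median to -0.22 in senescence and 0.35 with shMETTL3. It also turned POLR1A (-0.28), WDR43 (-0.088), TSR1 (-0.087), PES1 (-0.48) and NCL (-0.35) in senescence, MYC (0.41), POLR1A (0.52), RRN3 (0.21), WDR75 (0.43), RRP12 (0.22), PES1 (0.35) and DDX21 (0.19) with shMETTL3, TSR1 (0.23) with shMETTL14, and WDR43 (-0.019) between the knockdowns. Library size without rRNA rows gave 10 falls with shMETTL3, 10 rises and 1 fall with shMETTL14, 0 lower between the knockdowns and 3 higher for shMETTL3 against control cells. It turned PES1 in senescence (-0.087), DDX21 between the knockdowns (0.17), and the median (-0.13), POLR1A (-0.078) and NOLC1 (-0.025) for shMETTL3 against control cells. Upper quartile scaling turned PES1 in senescence (-0.041), DDX21 between the knockdowns (0.013) and the median for shMETTL3 against control cells (-0.0035). FBL in senescence turned with no filter (0.014) and with only the groups compared (0.029), and PES1 with at least 10 counts in every library (-0.025). With GC and length trends removed, NCL turned in senescence (-0.026), MYC with shMETTL3 (0.13) and PES1 for shMETTL3 against control cells (0.10). Without small RNA rows, TAF1D was -0.086 for shMETTL3 and -0.0057 for shMETTL14 against control cells.

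With a library left out, 5 to 11 rose and 0 to 2 fell in senescence, 0 to 1 rose and 2 to 7 fell with shMETTL3, 0 to 10 rose and 1 to 2 fell with shMETTL14, 10 to 20 were higher and 0 to 3 lower between the knockdowns, 3 to 7 higher and 3 to 9 lower for shMETTL3 and 12 to 22 higher and 1 lower for shMETTL14 against control cells. The falls with shMETTL3 came to 2, NCL and TSR1, without either shControl library. Those of UBTF and UTP20 in senescence were both lost without either control library, either shControl library or shMETTL14 replicate 1. Higher calls for shMETTL14 against control cells came to 12 without shMETTL14 replicate 1. Small differences changed sign and are given as ranges. In senescence FBL ran from -0.14 to 0.14 and PES1 from -0.14 to 0.19. With shMETTL3, WDR75 ran from -0.55 to 0.23, MYC from -0.51 to 0.036 and POLR1A from -0.23 to 0.0082. With shMETTL14, WDR75 ran from -0.0018 to 0.77, RRN3 from -0.14 to 0.20, NOLC1 from -0.050 to 0.50, TSR1 from -0.30 to 0.026 and RRP12 from -0.11 to 0.29. Between the knockdowns DDX21 ran from -0.22 to 0.22. For shMETTL3 against control cells the median ran from -0.024 to 0.11 and POLR1A from -0.0022 to 0.24.

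The numbers do not pair the libraries, and with a replicate block the higher and lower counts were 7 and 2 in senescence, 0 and 6 with shMETTL3, 6 and 2 with shMETTL14, 20 and 1 between the knockdowns, 7 and 6 for shMETTL3 and 19 and 1 for shMETTL14 against control cells. With 37 of the 46 genes under 100 mean counts and 2 libraries per group, a gene that was not called is not shown to be unchanged. The smallest change that could be called at this depth was not measured.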
